A study of Mus musculus with 11 samples.

Results

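The RNA sensing and interferon response genes are 39 genes with a role in how a cell detects foreign RNA and answers it: 7 RNA sensors and their adaptor, 9 genes of interferon signalling, 19 interferon-stimulated genes, and 4 genes for chemokines or for the class I antigen pathway. They were chosen by name as a list of this pathway. The rule used no measured value, but the list was drawn up with earlier results of these data known. All 39 were found among the 48709 genes of the count tables, and 33 of them passed the filter for testing (5 counts or more in 50% or more of the 11 samples), as did 17365 genes in all. The 6 that did not pass were Ifit1, Oasl1, Oas1a, Oas2, Cxcl10 and Ccl5.

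RNA that arrives from outside a cell can be read as a sign of infection. Receptors in endosomes (Tlr3, Tlr7) and helicases in the cytoplasm (Ddx58, which encodes RIG-I, and Ifih1, which encodes MDA5) detect it, and the helicases signal through the adaptor Mavs to Irf3 and Irf7, which switch on type I interferon. Secreted interferon binds the receptor Ifnar1 and Ifnar2, and the kinases Jak1 and Tyk2 then activate a complex with Stat2 and Irf9, which binds a DNA element upstream of the interferon-stimulated genes. In the brain these genes are active in neurons as well as in glia, and microglia respond to interferon strongly.

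The samples were primary hippocampal neurons in culture from embryonic day 17 embryos of CD1 mice, in which the hippocampi of several embryos were pooled before plating. At day 10 in vitro (DIV10), 5 of the samples received lipid nanoparticles (LNPs) loaded with a mimic of miR-181a-5p, and 6 received LNPs with a negative control RNA. Both groups were also given the lipid carrier protein ApoE4, and all were harvested 48 h later at DIV12. Every sample analysed here therefore carried nanoparticles and an oligonucleotide, so that the comparison is of one oligonucleotide with the other, and a response to delivery that both groups share could not be measured. The labels do not say whether samples came from separate cultures, so that p-values measure the spread between these samples, which may be technical.

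Total counts ranged from 17287168 to 48091231 per sample. Of 17365 genes tested with the quasi-likelihood test of edgeR, 495 had an adjusted p under 0.05, with 188 higher and 307 lower in mimic. These numbers depended on the processing, with 68 higher and 150 lower without control replicate 1. With upper-quartile scaling 234 were higher and 226 lower. Neuron markers were abundant, with summed levels of 8995 to 9224 CPM (counts after scaling for library size) over 10 genes in control and 8560 to 8837 in mimic. Markers of other cells were present as well, with none of them at 0 in every sample: 8 astrocyte markers summed to 4511 to 4890 CPM in control and 4148 to 4396 in mimic, and over all samples 12 microglia markers summed to 26.3 to 29.5 CPM, 10 endothelial markers to 44.7 to 54.6, and 10 fibroblast and mural markers to 272 to 552. The summed neuron and astrocyte markers were thus lower in mimic, with groups that did not overlap. Of single markers, 9 of 10 for neurons and 6 of 8 for astrocytes were lower in the edgeR fit. Slc1a2 was the largest part of the astrocyte sum, with a mean of 2398 CPM in control and 2109 in mimic. The astrocyte marker Slc1a3 was at 1045 and 1046 CPM.

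The sequence listed for each oligonucleotide is shown first because its seed (bases 2 to 8, in capitals) decides which messenger RNAs it can pair with. Whether another strand was delivered with it was not examined, so these sequences may not be the full RNA that the sensors would meet.
mimic miR-181a-5p: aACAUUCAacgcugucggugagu
negative control: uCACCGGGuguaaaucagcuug
The mimic has 23 bases and equals the mature mmu-miR-181a-5p of RefSeq (GRCm38.p6). Its seed is that of 4 mature mouse microRNAs there, miR-181a-5p, miR-181b-5p, miR-181c-5p and miR-181d-5p. The negative control has 22 bases, and 0 mature mouse microRNAs in the same table carry its seed.

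A match to the mimic's seed, TGAATGT, was found in the longest annotated 3′ untranslated region (3′ UTR) of 3 of the 39 genes (Eif2ak2, Irf1 and Ifit2), against 18.5% of 14489 tested genes with a 3′ UTR. A match to the control's seed, CCCGGTG, was found in 2 (Cxcl10 and Tap1), against 2.87%. Both percentages are over tested genes, while the 39 include 6 that were not tested, Cxcl10 among them. None of the 39 genes was among the 1121 predicted miR-181a-5p targets in the study's list, which held 5.85% of the tested genes. Per the study's methods, predicted targets were taken from TargetScan. The 3 sites for the mimic are given with the seed match in capitals, on the strand of the gene.
Eif2ak2: aactgttgcctcTGAATGTgggggtccaaa
Irf1: acttcatgtgccTGAATGTatgtctatgta
Ifit2: tcctcacatgggTGAATGTtccatccttga
They lie at chr17:78854340-78854369 (minus strand), chr11:53777560-53777589 (plus strand) and chr19:34574830-34574859 (plus strand) of GRCm38. Differences between groups for these 3 genes were small, with log2 fold changes (mimic minus control) of 0.05 ± 0.06 (SE) for Eif2ak2, 0.07 ± 0.08 for Irf1 and 0.12 ± 0.11 for Ifit2, and adjusted p values of 0.784, 0.760 and 0.695 in the edgeR fit.

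The mean levels of the 39 genes in control covered more than 4 orders of magnitude, a span whose lower end rests on 1 count of Oasl1. To compare genes, CPM was divided by exon length (CPM per kb). B2m, the light chain of class I molecules, was highest with 45.6 ± 2.57 CPM per kb (SD, n = 6) in control and 50.8 ± 3.99 (n = 5) in mimic. Next were Jak1 with 38.0 ± 0.36 CPM per kb in control, Adar with 16.5 ± 0.29 and Ifnar1 with 11.6 ± 0.23, and the ranges of these 4 over the control samples did not overlap with those of their neighbours in the order. Ifitm3 (6.51 ± 0.67 CPM per kb) and Stat2 (6.49 ± 0.19) did overlap. In all, 30 of the 38 pairs of neighbours in the order overlapped over the control samples, so that the order below the top is a coarse one.

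Of the 19 interferon-stimulated genes, 15 were under 1 CPM per kb in control. Among sensors, Mavs (2.94 ± 0.16 CPM per kb in control) and Eif2ak2 (2.72 ± 0.24), which encodes the kinase PKR, were ahead of Tlr3 (1.16 ± 0.18) and Ddx58 (0.67 ± 0.07), while Dhx58 (0.16 ± 0.03), Tlr7 (0.13 ± 0.04) and Ifih1 (0.08 ± 0.02) were low. Irf3, which is made without a stimulus in most cells, was at 3.45 ± 0.35 CPM per kb in control, and Irf7, its inducible relative, at 0.08 ± 0.05. Of the tested genes, Parp14 was lowest with 0.06 ± 0.02 CPM per kb, which put it at the 1.87 percentile of all tested genes, and B2m at the 95.3 percentile.

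**Figure D1:**
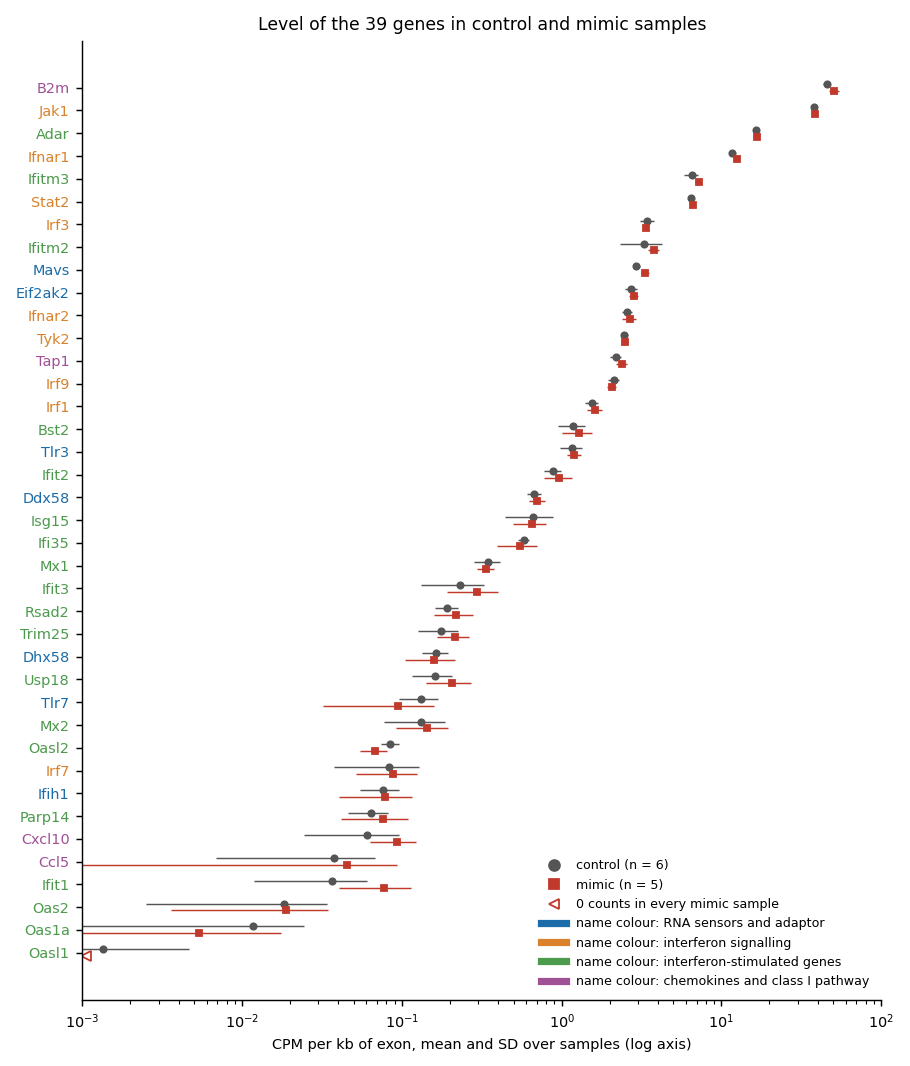
Level of each of the 39 genes in CPM per kb of exon (horizontal log axis), as mean and SD over 6 control samples (grey circles) and 5 mimic samples (red squares), sorted by the control mean, with bars cut at the left edge and the colour of each name giving its role. In both groups the levels run from B2m at 45.6 CPM per kb (control) down to Oasl1, which had 1 count in all control samples and 0 in mimic.

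Among the 33 tested genes, 0 had an adjusted p under 0.05 in the edgeR fit, where 2.85% of all tested genes did, and 0 were called higher, where 1.08% of all tested genes were. At an unadjusted p under 0.05 there were 4 (12.1%), against 15.7% of all tested genes. All 4 were higher in mimic, namely Mavs, Ifnar1, B2m and Tap1, and 7.30% of all tested genes were higher at this threshold. DESeq2 called 1 of the 33, Ifnar1 (adjusted p = 0.0446), and limma on the authors' normalized table called 0.

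The log2 fold change lay above 0 for 25 of the 33 tested genes (75.8%) and below 0 for 8, where 49.9% of all tested genes were above 0. Its median was 0.06, against -0.00015 over all tested genes, and without mimic replicate 2 the median was 0.02. The range ran from -0.45 (Tlr7) to 0.37 (Usp18). By role, 5 of 7 sensors, 7 of 9 signalling genes, 11 of 15 interferon-stimulated genes and 2 of 2 class I genes were above 0, with medians of 0.04, 0.03, 0.14 and 0.14. Fibroblast and mural markers summed to 418 to 552 CPM in mimic against 272 to 407 in control, ranges that do not overlap. Of the 10, 8 had a log2 fold change above 0, but 1 was called higher (Foxc1) and 1 lower (Rgs5), and the collagen genes Col1a1, Col1a2 and Col3a1, none of them called, made up most of the sum. The part of these markers, and of the lower neuron and astrocyte sums, in the differences of the list was not tested, and in bulk RNA fewer cells of a type and less RNA per cell cannot be told apart.

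**Figure D2:**
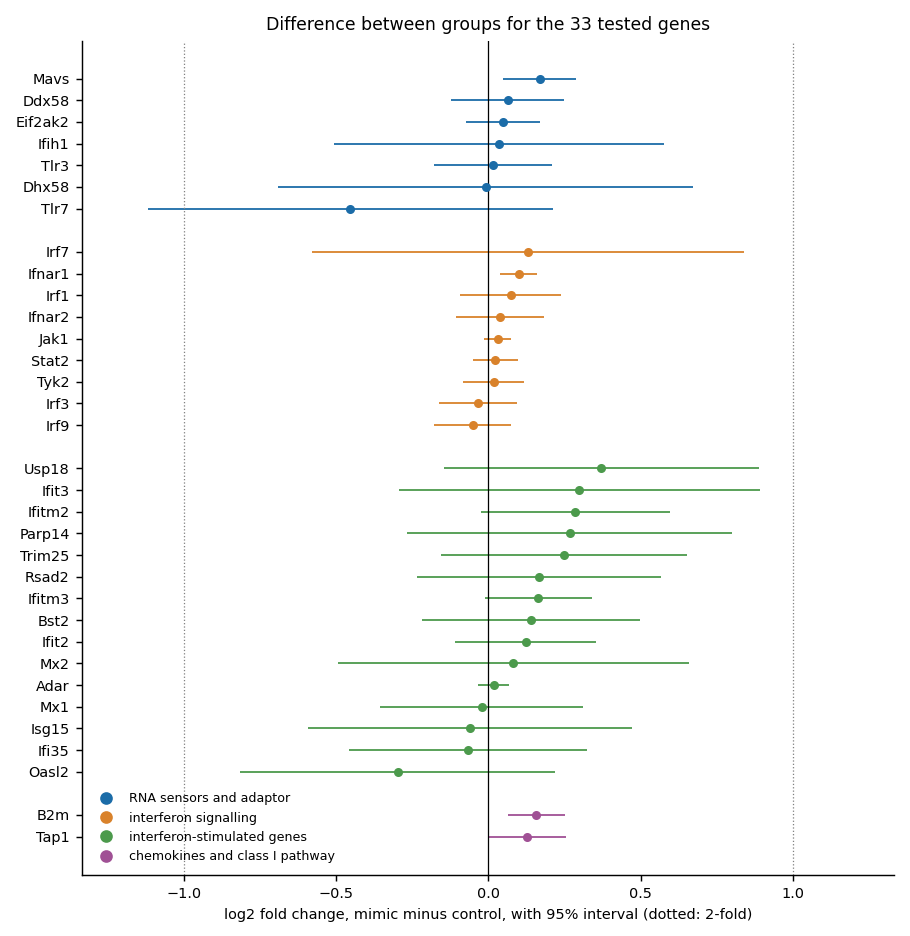
Log2 fold change, mimic minus control (horizontal axis), with the 95% interval of the edgeR fit for each of the 33 tested genes, grouped and coloured by role, with dotted lines at a 2-fold difference. Intervals of Mavs, Ifnar1, B2m and Tap1 lie above 0, and all 33 upper bounds lie under a 2-fold increase.

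How large a difference the data could have missed depended on the gene. The 95% interval of the fold change lay within 1.2-fold in either direction for 14 of the 33 genes, within 1.5-fold for 22 and within 2-fold for 32. The exception at 2-fold was Tlr7, with an interval of 0.460 to 1.16. An increase of 2-fold or more lay outside the interval of every tested gene, the highest upper bound being 1.86 for Ifit3. An increase of 1.5-fold or more stayed inside the interval of 8 genes, so that one of this size could have been missed for them.

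Precision followed the number of reads, and the inducible genes had few. Of the tested genes of the list, 36.4% were under 1 CPM (not scaled for length), against 19.8% of all tested genes. Irf7, with 86 counts over all 11 samples, had an interval whose upper bound was 2.67 times its lower bound. For Jak1, with 75456 counts, that ratio was 1.07.

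**Figure D3:**
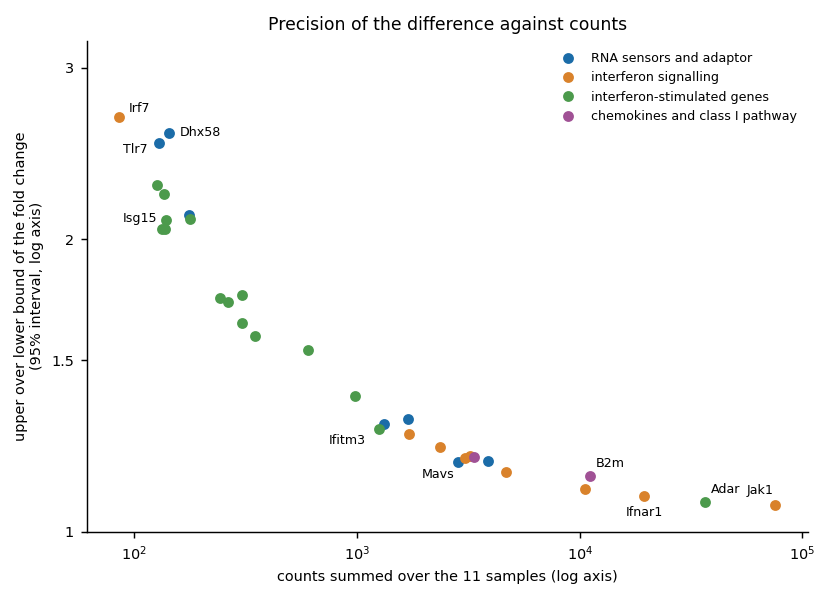
Width of the 95% interval of the fold change (upper bound divided by lower bound, vertical log axis) against the counts summed over the 11 samples (horizontal log axis) for the 33 tested genes, coloured by role. The width falls from 2.67 for Irf7 (86 counts) to 1.07 for Jak1 (75456 counts), and most interferon-stimulated genes sit at the wide end.

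Mavs, on the outer membrane of mitochondria, passes the signal of the RNA helicases on (ENSMUSG00000037523, chr2:131234063-131248025, plus strand, GRCm38). In control it lay between 9.05 and 10.5 CPM with a median of 9.85. The 5 mimic samples had 11.6, 11.1, 10.2, 11.6 and 11.2 CPM, so that 4 of 5 were above every control sample and replicate 3 was within their range. The difference in log2 was 0.17 ± 0.06 (SE), 1.12-fold with a 95% interval of 1.04 to 1.22, and its adjusted p was 0.124 (edgeR).

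Tlr7, the endosomal receptor for single-stranded RNA, had the most negative log2 fold change of the list, -0.45 ± 0.32 (adjusted p = 0.565, edgeR). It lies on the X chromosome (ENSMUSG00000044583, chrX:167304929-167330558, minus strand). Its level was 0.37 to 0.76 CPM in control, with a median of 0.51. In mimic it was 0.76, 0.42, 0.05, 0.28 and 0.43 CPM, where the lowest, replicate 3, rested on 1 count. The groups overlapped, with mimic replicates 3 and 4 below every control sample and replicate 1 near the highest, and leaving out single samples moved the log2 fold change between -0.79 and -0.22.

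The other sensors showed smaller values. Ddx58 was at 4.75 ± 0.47 CPM (SD) in control and 4.96 ± 0.57 in mimic (log2 fold change 0.06), and Eif2ak2 at 13.9 ± 1.2 and 14.4 ± 0.85. Tlr3, the receptor for double-stranded RNA, was at 6.06 ± 0.94 and 6.24 ± 0.61 CPM (0.02). Ifih1 had 0.62 ± 0.17 and 0.64 ± 0.31 CPM, and Dhx58, a regulator of the helicases, 0.54 ± 0.10 and 0.52 ± 0.18. The sign for Ifih1, Ddx58, Dhx58 and Tlr3 turned when single samples were left out.

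No type I interferon was detected at more than a trace. Of 21 genes for interferons in the count tables, 18 had 0 counts in every sample, Ifnb1 among them. The other 3 had 7 counts together, with 1 for Ifna12 and 4 for Ifnz in control and 2 for Ifng, the type II interferon, in mimic. Many of these genes are near-identical copies, and how reads that map to several places were counted is not given in the sources used here, so that a low count of one copy is uncertain.

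Ifnar1, a chain of the type I interferon receptor (ENSMUSG00000022967, chr16:91485238-91507441, plus strand), had the most precise difference among the 4 genes with an unadjusted p under 0.05. Control samples lay between 67.1 and 71.0 CPM, with a median of 68.8. Mimic samples had 74.2, 70.9, 73.9, 73.9 and 77.2 CPM, of which 4 were above every control sample and replicate 2 just under the highest one. In log2 the difference was 0.10 ± 0.03, 1.07-fold with an interval of 1.03 to 1.12, and the adjusted p was 0.0632 with edgeR and 0.0446 with DESeq2. The partner chain Ifnar2 was at 8.53 ± 0.63 CPM in control and 8.86 ± 0.86 in mimic (log2 fold change 0.04 ± 0.07).

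Jak1, a kinase at the receptor (ENSMUSG00000028530, chr4:101152367-101265282, minus strand), was the single gene of the 33 whose groups did not overlap, where 2.89% of all tested genes had groups that did not. Control samples lay between 271.8 and 277.6 CPM, and mimic samples had 278.3, 284.6, 279.1, 281.0 and 279.0 CPM. The gap between the groups was therefore under 1 CPM. The difference came to a log2 fold change of 0.03 ± 0.02, 1.02-fold with an interval of 0.990 to 1.05, and did not pass the edgeR test (adjusted p = 0.578).

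The remaining signalling genes differed by less than their spread. Stat2 was at 38.5 ± 1.12 CPM in control and 39.1 ± 1.55 in mimic, Tyk2 at 16.96 ± 0.84 and 17.2 ± 0.77, and Irf9 at 11.4 ± 0.87 and 11.1 ± 0.67. Irf3 was at 11.9 ± 1.2 and 11.6 ± 0.33 CPM and Irf1 at 6.15 ± 0.56 and 6.45 ± 0.71. Irf7, which is itself induced by interferon and amplifies the response, was at 0.31 ± 0.17 CPM in control and 0.33 ± 0.14 in mimic, with a fold change of 1.10 and a wide interval of 0.670 to 1.79. It shares 45 exon bases with Phrf1 on the other strand, a gene with 17407 counts against 86 for Irf7, and the strand setting of the counting is not given in the sources used here.

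The DNA element through which interferon acts, the interferon-stimulated response element, has the core GAAANNGAAA. It was searched on both strands, with overlapping matches allowed, in RefSeq promoters (GRCm38.p6, 250 bases before to 50 after a gene's start), which 31 of the 39 genes had. Of these, 14 (45.2%) held a match, against 3.99% of 27025 genes, and among interferon-stimulated genes it was 8 of 14. Windows of 30 bases from 6 genes that span the order of levels are shown, on the strand of the gene and with the core in capitals, which reads TTTCNNTTTC where the match is on the opposite strand.
Isg15: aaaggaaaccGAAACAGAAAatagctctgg
Ifit1: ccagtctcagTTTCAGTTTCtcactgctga
Oas1a: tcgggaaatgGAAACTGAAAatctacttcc
Rsad2: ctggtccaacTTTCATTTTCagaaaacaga
Ifitm3: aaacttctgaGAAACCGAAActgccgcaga
B2m: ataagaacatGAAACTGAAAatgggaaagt
The windows lie at chr4:156200865-156200894, chr19:34640794-34640823, chr5:120907520-120907549, chr12:26456553-26456582, chr7:141010706-141010735 and chr2:122147538-122147567. Isg15 held 3 matches, and those for Ifit1, Oas1a and Ifitm3 are 1 of 2 each. The median level in control was 0.67 CPM per kb for the 14 genes with a match and 2.12 for the 17 without, and 8 of the 14 and 6 of the 17 were under 1 CPM per kb. A match describes the sequence alone. Dhx58, Tlr7, Mx1, Mx2, Oas2, Usp18, Parp14 and Ccl5 were not searched.

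Classical interferon-stimulated genes were near the lower limit of measurement in both groups. Isg15, a ubiquitin-like modifier, was at 0.50 ± 0.17 CPM in control and 0.49 ± 0.12 in mimic, which came from 5 to 30 counts per sample, and its fold change of 0.960 had an interval of 0.664 to 1.39. Usp18, which removes Isg15 from proteins, was at 0.45 ± 0.13 and 0.57 ± 0.18 CPM, and its log2 fold change of 0.37 ± 0.25 was the highest of the list (adjusted p = 0.536, edgeR). Without mimic replicate 2 it was 0.14.

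The Ifit genes, whose proteins bind viral RNA, had different levels. Ifit2 was at 3.48 ± 0.42 CPM in control and 3.80 ± 0.77 in mimic. Ifit3 was at 0.40 ± 0.17 and 0.52 ± 0.18 CPM, with an interval of the fold change of 0.816 to 1.86. Without mimic replicate 5, in which Ifit2 was at 5.16 CPM, its log2 fold change was -0.01 in place of 0.12.

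The antiviral GTPases were also low. Mx1 had 1.31 ± 0.24 and 1.28 ± 0.16 CPM in control and mimic, and Mx2 0.47 ± 0.20 and 0.52 ± 0.19. Rsad2, which encodes viperin, had 0.84 ± 0.13 and 0.95 ± 0.26 CPM. For Oasl2, of the oligoadenylate synthetase family, the levels were 0.54 ± 0.07 and 0.43 ± 0.08 CPM, and its log2 fold change of -0.30 ± 0.25 was the most negative among the interferon-stimulated genes.

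Further genes of this kind were Bst2, or tetherin, which holds virus particles at the cell surface, with 1.06 ± 0.20 CPM in control and 1.15 ± 0.25 in mimic. Trim25, the ubiquitin ligase that acts on RIG-I, had 1.01 ± 0.29 and 1.23 ± 0.28 CPM, Parp14, an ADP-ribosyltransferase, 0.60 ± 0.17 and 0.70 ± 0.32, and Ifi35 1.00 ± 0.08 and 0.94 ± 0.26. All 4 had groups that overlapped and adjusted p values between 0.622 and 0.922 (edgeR).

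Ifitm3 and Ifitm2, membrane proteins that hinder virus entry, had the 2 smallest p values among the interferon-stimulated genes. Ifitm3 (ENSMUSG00000025492, chr7:141009586-141010770, minus strand) lay between 3.74 and 5.03 CPM in control, with a median of 4.49. Mimic samples had 4.66, 5.01, 4.76, 5.30 and 4.83 CPM, of which replicate 4 was above every control sample. The log2 fold change was 0.16 ± 0.09, with an adjusted p of 0.363 (edgeR).

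Ifitm2 (ENSMUSG00000060591, chr7:140954837-140955987, minus strand) lay between 1.46 and 3.21 CPM in control, with a median of 2.16. Mimic samples had 2.58, 2.66, 2.16, 2.59 and 2.42 CPM, all within the control range. Its log2 fold change was 0.29 ± 0.15 and the adjusted p was 0.371 (edgeR). Leaving out single samples moved the log2 fold change between 0.17 (without control replicate 1) and 0.40 (without control replicate 5). Both genes belong to a family of similar sequences, and Ifitm2 shares 40.9% of its exon bases with the gene model Gm45717, which had 0 counts.

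Adar, the enzyme that edits adenosine in double-stranded RNA and so limits its detection by Ifih1 (ENSMUSG00000027951, chr3:89715022-89753446, plus strand), was the highest of the interferon-stimulated genes. Control samples lay between 130.5 and 137.2 CPM with a median of 134.1, and mimic samples had 135.1, 137.3, 136.0, 135.0 and 133.0 CPM. The groups overlapped, with a fold change of 1.01 and an interval of 0.978 to 1.05 (adjusted p = 0.816, edgeR). Of its exon bases, 16.8% overlap with Chrnb2 on the other strand, which had 24152 counts against 36566 for Adar.

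B2m and Tap1 serve the class I pathway, which shows peptides from inside the cell at its surface. B2m (ENSMUSG00000060802, chr2:122147686-122153083, plus strand) lay between 37.0 and 43.3 CPM in control, with a median of 38.97. Mimic samples had 42.8, 43.7, 42.3, 40.4 and 49.5 CPM. Control replicate 2, the highest, reached into the mimic range, and 2 of 5 mimic samples were above every control sample. The log2 fold change was 0.16 ± 0.05, 1.12-fold with an interval of 1.05 to 1.19, and the adjusted p was 0.0607 (edgeR). Without control replicate 2 it was 0.0182, and without mimic replicate 4 it was 0.0353.

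Tap1, a subunit of the transporter that brings peptides to class I molecules (ENSMUSG00000037321, chr17:34187553-34197225, plus strand), lay between 10.2 and 12.7 CPM in control, with a median of 12.0. In mimic it was at 14.4, 13.0, 11.5, 13.3 and 12.8 CPM, so that 4 of 5 samples were above every control sample. The log2 fold change was 0.13 ± 0.06 with an adjusted p of 0.311 (edgeR). Its exons share 212 bases with Psmb9 on the other strand, which had 520 counts against 3365 for Tap1.

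**Figure D4:**
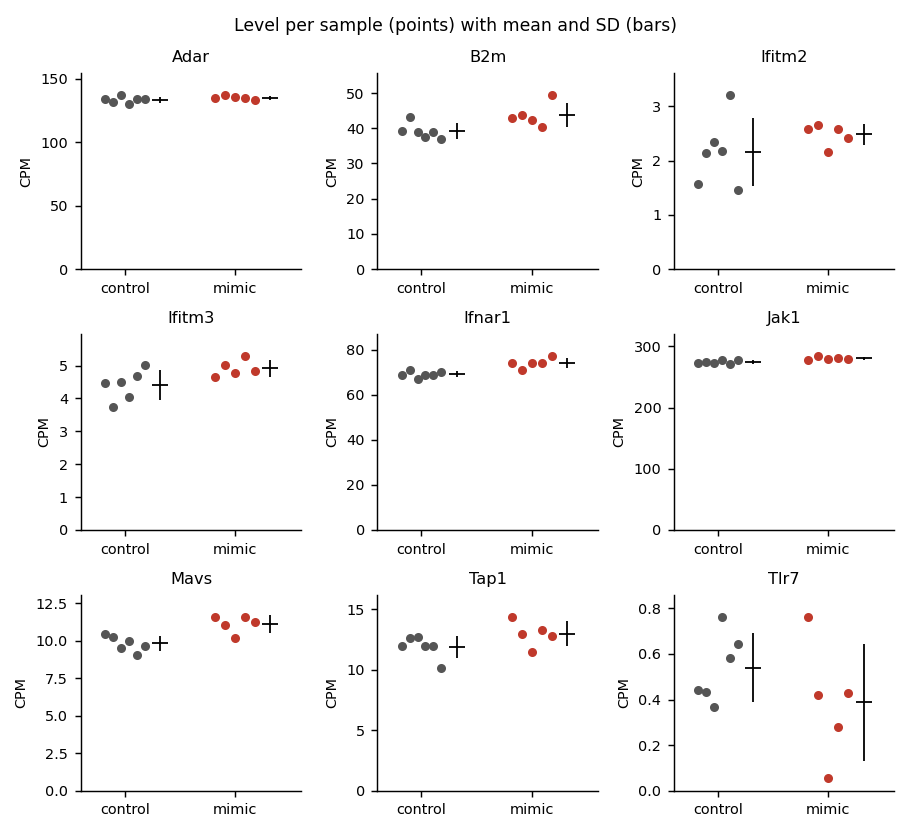
CPM (vertical axes, from 0) in each of 6 control (grey) and 5 mimic (red) samples, with mean and SD beside the points, for the 9 genes named by the rule for detailed values. The groups touch or overlap for every gene but Jak1, whose control samples end at 277.6 CPM and whose mimic samples start at 278.3.

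The 6 genes under the filter were counted over all samples of a group, and the ratio of rates is given with an exact 95% interval that covers counting error only. Ifit1 had 17 counts in control and 22 in mimic, a ratio of 1.89 (0.957 to 3.79). By sample, these were 7, 4, 0, 2, 1 and 3 counts in control and 5, 7, 5, 1 and 4 in mimic. Counts of the chemokine Cxcl10 were 25 and 23, a ratio of 1.34 (0.728 to 2.46), and those of the chemokine Ccl5 were 5 and 5, a ratio of 1.46 (0.336 to 6.34).

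Among the oligoadenylate synthetases, which double-stranded RNA activates, Oas2 had 12 and 9 counts, a ratio of 1.09 (0.407 to 2.83). Oas1a had 4 counts in control and 1 in mimic (ratio 0.365, 0.00740 to 3.69). Oasl1 had 1 count in control and 0 in mimic, where 3 counts, taken as what a count of 0 allows, come to 0.0271 CPM over the mimic group. For each of the 6 genes the interval included 1.

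Beyond the 39 genes, 99 further genes of the same pathways had been listed, of which 75 passed the filter. In the edgeR fit 3 of them (4%) were called, against 2.85% of all tested genes, and all 3 rose in mimic. The log2 fold change was above 0 for 47 and below 0 for 28. Counts at 0 in every sample were seen for 7 of the 99, namely Ifnb1, Ifna1, Ifna2, Ifna4, Ifnl2, Oas1g and Cxcl9.

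H2-D1, a class I heavy chain that pairs with B2m, rose from 35.2 ± 1.08 to 39.7 ± 1.30 CPM, with a log2 fold change of 0.17 ± 0.04 (adjusted p = 0.00888, edgeR). Its groups did not overlap, as control samples ended at 36.7 CPM and mimic samples started at 37.6. It belongs to a family of near-identical genes, and its counts may be split with them.

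Parp10, an ADP-ribosyltransferase that interferon induces, rose from 2.17 ± 0.37 to 2.99 ± 0.44 CPM, a log2 fold change of 0.49 ± 0.12 (adjusted p = 0.0280, edgeR). Its groups overlapped, and 6 of the 11 fits that left out a sample put its adjusted p between 0.0539 and 0.0881. The marker lists had the summed levels given above, and their part in the differences of H2-D1 and Parp10 was not tested.

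By list, Dicer1, which cuts double-stranded RNA, had a log2 fold change of -0.07 (adjusted p = 0.227) among 18 tested sensing and adaptor genes. Of 12 other signalling genes 0 were called, and the smallest p values were those of the interferon gamma receptor chains Ifngr1 (0.16, adjusted p = 0.233) and Ifngr2 (0.05, adjusted p = 0.350). Of 32 other interferon-stimulated genes 1 was called (Parp10), with Parp12 next (0.24, adjusted p = 0.0622), and of 13 other antigen and chemokine genes 1 was called (H2-D1), with Psmb9 next (0.25, adjusted p = 0.408). All p values are from the edgeR fit.

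Microglia are known to respond strongly to interferon. Their 12 markers summed to 27.2 to 29.5 CPM in control and 26.3 to 27.8 in mimic. Of the 11 tested, 3 were above 0 and 8 below, and 0 were called by edgeR. The 2 with the smallest p went in opposite directions, Tmem119 with a log2 fold change of 0.54 (adjusted p = 0.0534) and C1qa with -0.42 (adjusted p = 0.0782). Markers of the oligodendrocyte lineage summed to 315 to 381 CPM in control and 288 to 331 in mimic. Of the 8 tested, 6 were below 0 and 0 were called by edgeR. Those with the smallest p were Cspg4 (-0.40, adjusted p = 0.0782) and Olig1 (-0.17, adjusted p = 0.221). Endothelial markers summed to 44.7 to 52.6 CPM in control and 45.3 to 54.6 in mimic, ranges that overlap. Of the 7 tested, with a median log2 fold change of 0.05, Cdh5 alone was called, and it was higher (0.77, adjusted p = 0.00713). Of the fibroblast and mural markers Foxc1 was called higher (0.30, adjusted p = 0.0475) and Rgs5 lower (-0.66, adjusted p = 0.0227). Of 10 neuron markers 2 were called, Slc17a7 and Camk2a, and of 8 astrocyte markers 1, Slc1a2, all lower, where 2.85% of all tested genes were called. The log2 fold change was above 0 for 1 of the 10 neuron markers and for 2 of the 8 astrocyte markers.

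**Figure D5:**
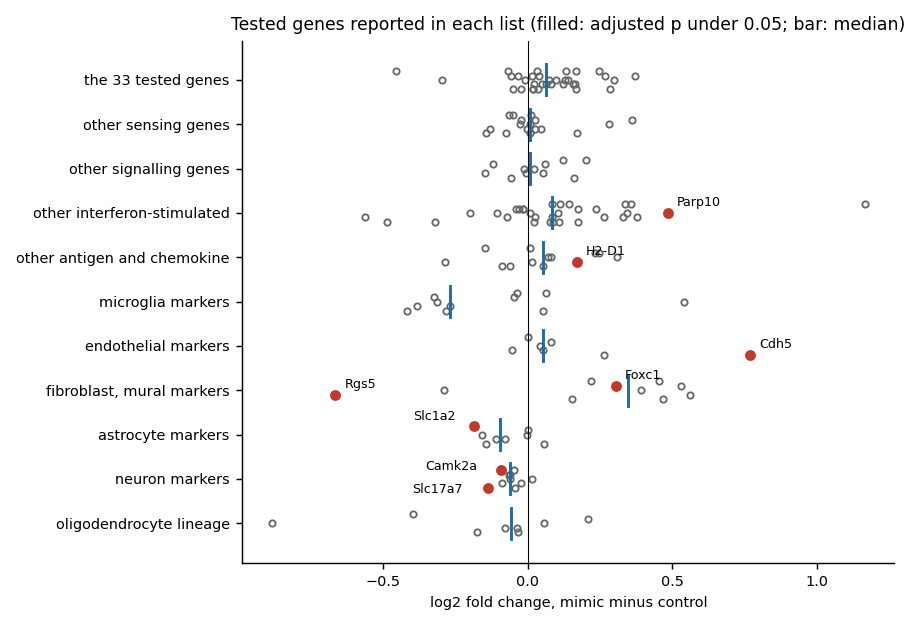
Log2 fold change, mimic minus control (horizontal axis), of the tested genes reported in each list (vertical), with an adjusted p under 0.05 shown as filled red points with names and the median of each list as a blue bar. The 33 tested genes hold no filled point and lie between -0.45 and 0.37, and the open point farthest to the right is Irgm2, at 1.16 with 54 counts and an adjusted p of 0.120.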

How the data were processed

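RNA of 11 samples was sequenced from poly(A)-selected libraries as single-end reads. Per the labels and the study's methods, the authors aligned reads to the mouse genome (mm10, which is GRCm38) with STAR 2.5.2b, counted them per Ensembl gene with featureCounts of Subread 1.5.1, and deposited raw counts for each sample. The annotation release, the strand setting and the treatment of reads that map to several places are not given in the sources used here, so counts of overlapping and near-identical genes are uncertain. A second deposited table held normalized signal, that is, counts divided by a size factor per sample, for 16921 genes, and served an alternative only. Columns without a matching sample numbered 0, as did entries without a gene. Groups were taken from the sample titles.

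Symbols, positions, exon lengths and 3′ UTRs came from GENCODE M21, which matched 48349 of 48709 genes, and promoters and microRNAs from RefSeq. Groups were compared in R 4.3.3 with edgeR 4.0.16, using its quasi-likelihood test (two-sided, robust, TMM scaling, group as the one term). Benjamini-Hochberg adjustment was over the 17365 genes that had 5 counts or more in 50% or more of the samples. The filter and the threshold of 0.05 follow the study's methods, which used DESeq2. Standard errors were set to give the reported p, and intervals are 95%. CPM used TMM-scaled library sizes, and 3 counts were taken as what a count of 0 allows. Intervals of counts cover counting error only, since the reads carried no molecular identifiers and may repeat a molecule. The fit was also run on simulated data, and the outcome is not used as evidence for any result here.

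Alternatives were DESeq2 1.42.0, 2 other scalings, 2 other filters, limma 3.58.1 on log2(normalized value + 1), a replicate block, leaving out each sample and, for levels, another gene length. Values for every sample are given for genes that are called, whose groups do not overlap, that have 1 of the 2 smallest p in their role, or that are highest per kb in it. Of other lists, called genes are named, or otherwise the 2 with the smallest p. Of the tested genes in those lists, 2 (1 of them called) are not reported here and not drawn, though the counts and medians of the lists include them. The 39 genes, their roles and the other lists were chosen with earlier results of these data known.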

Additional observations from a re-analysis of the deposited data

Results flagged for a closer look

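In 5 of 68 sets of values (each of the 33 tested genes, and the total counts, in each group), the highest or lowest sample stood apart from the others by Dixon's criterion, where chance gives about 1 in 20, or 3. Values are log2(CPM + 0.05). Stat2 was low in mimic replicate 1, with 5.19 (36.4 CPM, 717 counts) against 5.31 in the nearest sample. Ifit2 was high in mimic replicate 5, with 2.38 (5.16 CPM, 109 counts) against 1.86. Ifit3 was low in mimic replicate 3, with -1.91 from 4 counts. Trim25 was low in control replicate 3, with -0.85 from 11 counts. Tap1 was low in control replicate 6, with 3.36 (10.2 CPM, 237 counts) against 3.58. The 5 values come from 5 different samples.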

How the results depend on the processing

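The 18 alternatives gave 584 values for single genes of the list, of which 546 kept their sign and side of the threshold, 31 (10 genes) changed sign and 7 passed the threshold. Genes called numbered 495, but 785 with no count filter, 328 with the replicate block, and 218 to 491 when a sample was left out. Genes of the list called numbered 0, but 1 with DESeq2 (Ifnar1), 2 with upper-quartile scaling (Ifnar1, adjusted p = 0.0433, and B2m, adjusted p = 0.0459), 1 with no count filter (B2m, adjusted p = 0.00709), and 0 to 2 when a sample was left out, where the 2, without control replicate 2, were Ifnar1 (adjusted p = 0.0459) and B2m (0.0182), and B2m alone was called without mimic replicate 4 (0.0353). In the alternatives not named here the adjusted p of both genes was above 0.05. Other pathway genes called numbered 3, but 1 to 4 when a sample was left out, with 1 without control replicate 1 or mimic replicate 2. H2-D1 passed in every alternative run, and Parp10 had an adjusted p of 0.0572 with the normalized table. For the 33 tested genes the median log2 fold change lay between 0.0183 and 0.0937 when a sample was left out. The median level in control was 0.66 CPM per kb of exon and 0.74 per kb of the longest annotated transcript.

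Upper-quartile scaling moved the median log2 fold change of all genes to 0.01 and the share of called genes that were lower from 62.0% to 49.1%, which was 47.0% with the replicate block and 49.8% without control replicate 4. Signs changed for Ifih1 (-0.0521) and Isg15 (0.0212) with the normalized table and for Dhx58 (0.0014) with upper-quartile scaling. When a sample was left out, log2 fold changes ranged from -0.26 to 0.22 for Ifih1, -0.0050 to 0.12 for Ddx58, -0.17 to 0.12 for Dhx58, -0.0406 to 0.0693 for Tlr3, -0.0678 to 0.44 for Irf7, -0.0050 to 0.17 for Ifit2, -0.18 to 0.0667 for Isg15, -0.12 to 0.0855 for Mx1, -0.0902 to 0.26 for Mx2 and -0.18 to 0.0436 for Ifi35. The cause of these changes was not tested. The deviations of samples of both groups with the same number had correlations of -0.02 to 0.02 over 5 pairs. Over 20 other pairs the correlations were -0.07 to 0.08. No pairing by number was thus seen, but one limited to few genes could be missed, so pairing is not excluded. With the replicate block, which left out control replicate 6, 0 genes of the list were called and Parp10 had an adjusted p of 0.0512.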
